A study of Mus musculus with 4 samples.

Results

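Integrin, laminin and nidogen genes were followed in infarcted mouse hearts with and without a transgene for cardiac reprogramming factors. Genes were chosen by name: every probe annotated to an integrin alpha or beta subunit, a laminin alpha, beta or gamma chain, or a nidogen was taken, which gave 36 genes with 1 probe each out of 22206 probes on the array. They were 24 integrin subunits, 10 laminin chains and 2 nidogens. Membership was set by gene name, but these gene families were chosen with earlier results of these data known.

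The study compared 4 whole hearts of male mice. The TTg-MI group held 2 hearts of genotype Tcf21iCre/Tomato/MGTH2A and the Ctrl-MI group 2 hearts of genotype Tcf21iCre/Tomato, so both groups carried the Cre and the Tomato reporter and differed by MGTH2A. The MGTH2A transgene is known to join coding sequences of Mef2c, Gata4, Tbx5 and Hand2, which are transcription factors of the developing heart, and Tcf21, which drives the Cre, is a transcription factor gene of cardiac fibroblasts. All mice were infarcted (MI, myocardial infarction) when 8 weeks old by ligating the left coronary artery, and hearts were taken after 3 months. There was no uninjured group. RNA was read on Clariom S Mouse arrays, which give 1 value per probe, taken here as log2 units.

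Integrins are receptors made of 1 alpha and 1 beta subunit that tie the cytoskeleton to the extracellular matrix or to other cells. Laminins are trimers of an alpha, a beta and a gamma chain that form the sheet of the basement membrane around heart muscle cells and vessels, and nidogens link that sheet to the collagen IV network. After an infarct, integrins of fibroblasts bind the new matrix of the scar, some integrins release active TGF-beta from its latent complex, and leukocyte integrins carry white blood cells into the tissue.

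The Ctrl-MI arrays stood further from each other than the TTg-MI arrays. Across all probes, Pearson correlations ran from 0.977 (TTg-MI replicate 2 with Ctrl-MI replicate 1) to 0.991, and that between the Ctrl-MI arrays was 0.987. Ctrl-MI replicate 2 correlated better with TTg-MI replicates 1 and 2 (0.991 and 0.989) than with Ctrl-MI replicate 1, so the arrays did not sort by group. All 12 cardiomyocyte markers were measured and none was dim, meaning under the lower quartile of the array (5.41 to 5.48), on all 4 arrays. Some atrial muscle genes separated the Ctrl-MI hearts: Myl7, an atrial myosin light chain, had 12.45 and 11.47 log2 units on the TTg-MI arrays, against 10.44 and 5.61 on the Ctrl-MI arrays. Tcf21 stood at 7.26 and 7.26 in TTg-MI hearts and 8.96 and 8.30 in Ctrl-MI hearts. Since RNA came from whole hearts, fewer cells of a type and less RNA per cell cannot be told apart.

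None of the 36 genes passed limma with Benjamini-Hochberg adjustment over all probes at 0.05, where 1 probe in the whole table did, 0.0045% of probes. The smallest adjusted p of any of them was 0.530. At an unadjusted limma p under 0.05 stood 6 of them, 5 with lower and 1 with higher values in TTg-MI hearts. That is 13.9% lower and 2.78% higher, where the same threshold took 5.07% of all probes as lower and 3.18% as higher. The 6 were Lamc1, Itgb5, Itgb6, Itga9, Itga5 and Itgam.

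Values leaned to the lower side in TTg-MI hearts. The TTg-MI mean was lower for 25 of the 36 genes, 69.4%, against 47.7% of all probes, and the median log2 difference (TTg-MI mean minus Ctrl-MI mean) was -0.22, against 0.011 over all probes. The TTg-MI arrays were both under the lower Ctrl-MI array for 15 genes, 41.7%, where 18.7% of all probes did so, and above them for 4 genes, 11.1%, where 19.4% of all probes did so. Of the 32 genes that were dim on no array, 21 lay lower by mean in TTg-MI hearts and the median log2 difference was -0.23. The 36 genes were read on the same 4 arrays and are not independent draws. For 17 of them Ctrl-MI replicate 1 was the highest of the 4 arrays, and the median difference was -0.14 without that array. The gap between the Ctrl-MI arrays was wider than that between the TTg-MI arrays for 26 of the 36 genes, or 72.2%, compared with 56.5% of all probes.

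**Figure D1:**
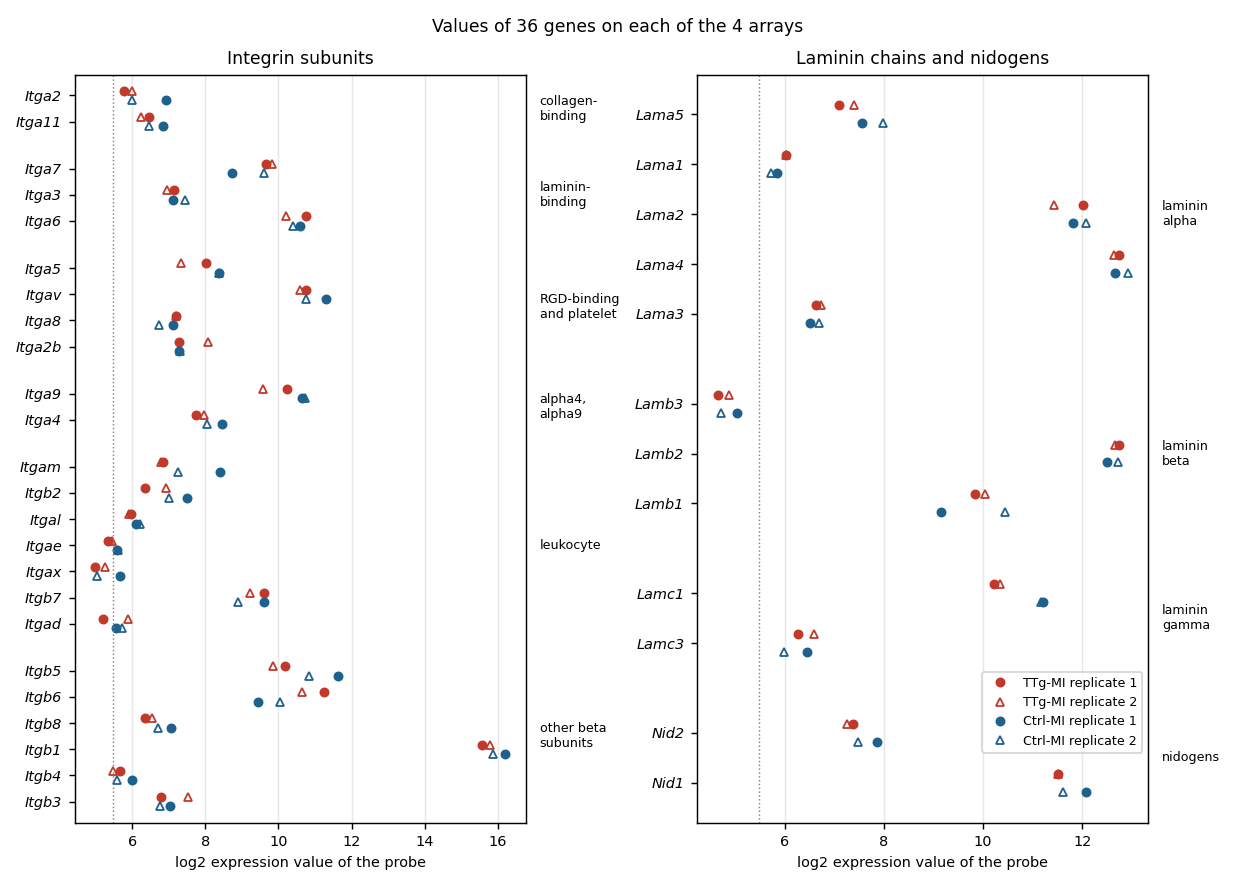
Log2 value of each gene's probe (horizontal axis) on the TTg-MI arrays (red) and the Ctrl-MI arrays (blue), replicate 1 filled and replicate 2 open, with genes grouped by role; the dotted line marks the highest of the arrays' lower quartiles, 5.48. Red points lie left of blue points without overlap for 15 genes and right of them for 4. Positions of different probes are not comparable as transcript levels.

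The laminin gamma 1 chain gene, Lamc1, had the smallest p of the 36. Its product is the gamma chain of most laminin trimers, those of muscle and vessels included. Lamc1 had 10.22 and 10.34 log2 units in TTg-MI hearts, against 11.20 and 11.16 in Ctrl-MI hearts. The groups did not overlap, and replicates differed by 0.12 log2 units in TTg-MI and 0.04 in Ctrl-MI. The log2 difference was -0.90 (SE 0.15, 95% interval -1.28 to -0.52), which is 1.86-fold lower in TTg-MI (limma, unadjusted p = 0.00134, adjusted p = 0.530). With each array left out in turn the difference stayed between -0.96 and -0.84.

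The remaining laminin genes had smaller differences. Lamc3, a gamma chain of few tissues, had 6.26 and 6.59 log2 units in TTg-MI hearts and 6.44 and 5.99 in Ctrl-MI hearts, so its groups overlapped. The 3 measured beta chains all overlapped between groups. Lamb2, the beta chain of mature muscle and vessel laminins, had 12.73 and 12.66 in TTg-MI hearts and 12.49 and 12.73 in Ctrl-MI hearts (log2 difference 0.09, SE 0.16, 95% interval -0.32 to 0.50). Lamb1, the other broadly used beta chain, spread widely in Ctrl-MI hearts, with 9.83 and 10.04 in TTg-MI and 9.16 and 10.44 in Ctrl-MI. Its log2 difference was 0.14 (SE 0.42), at -0.51 when Ctrl-MI replicate 1 was left out and 0.78 when Ctrl-MI replicate 2 was. Lamb3, a chain of epithelial laminin, was dim on all 4 arrays, so no difference is read for it.

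Among the 5 alpha chains the groups were separate for Lama5 and Lama1. Lama5, a chain of vessel and epithelial basement membranes, had 7.09 and 7.40 log2 units in TTg-MI hearts, against 7.56 and 7.98 in Ctrl-MI hearts, a log2 difference of -0.53 (SE 0.21, 95% interval -1.06 to 0.01, limma unadjusted p = 0.0533). It was -0.32 without Ctrl-MI replicate 2. Lama1, a chain of early embryonic basement membranes, was on the other side, with 6.03 and 6.02 in TTg-MI hearts and 5.84 and 5.72 in Ctrl-MI hearts, a log2 difference of 0.24 (SE 0.15). The chains best known from heart tissue overlapped. Lama2, the alpha chain of the muscle cell basement membrane, had 12.02 and 11.44 in TTg-MI hearts and 11.81 and 12.08 in Ctrl-MI hearts, with a 95% interval for the difference of -0.82 to 0.38. Lama4, the alpha chain of small vessels, had 12.74 and 12.64 in TTg-MI hearts and 12.65 and 12.92 in Ctrl-MI hearts (log2 difference -0.10, SE 0.17, 95% interval -0.52 to 0.33). Lama3, an epithelial chain, also overlapped.

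Both nidogens had lower values on both TTg-MI arrays. Nid1 had 11.51 and 11.52 log2 units in TTg-MI hearts, against 12.07 and 11.62 in Ctrl-MI hearts, and Nid2 had 7.37 and 7.26 in TTg-MI hearts, against 7.87 and 7.47 in Ctrl-MI hearts. The differences of -0.33 (SE 0.20) for Nid1 and -0.35 (SE 0.19) for Nid2 did not pass limma (unadjusted p = 0.153 for Nid1 and 0.119 for Nid2). Ctrl-MI replicate 1 was the highest array for both, and without it the differences were -0.10 for Nid1 and -0.15 for Nid2. With Ctrl-MI replicate 2 left out instead, they were -0.56 for Nid1 and -0.55 for Nid2.

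**Figure D2:**
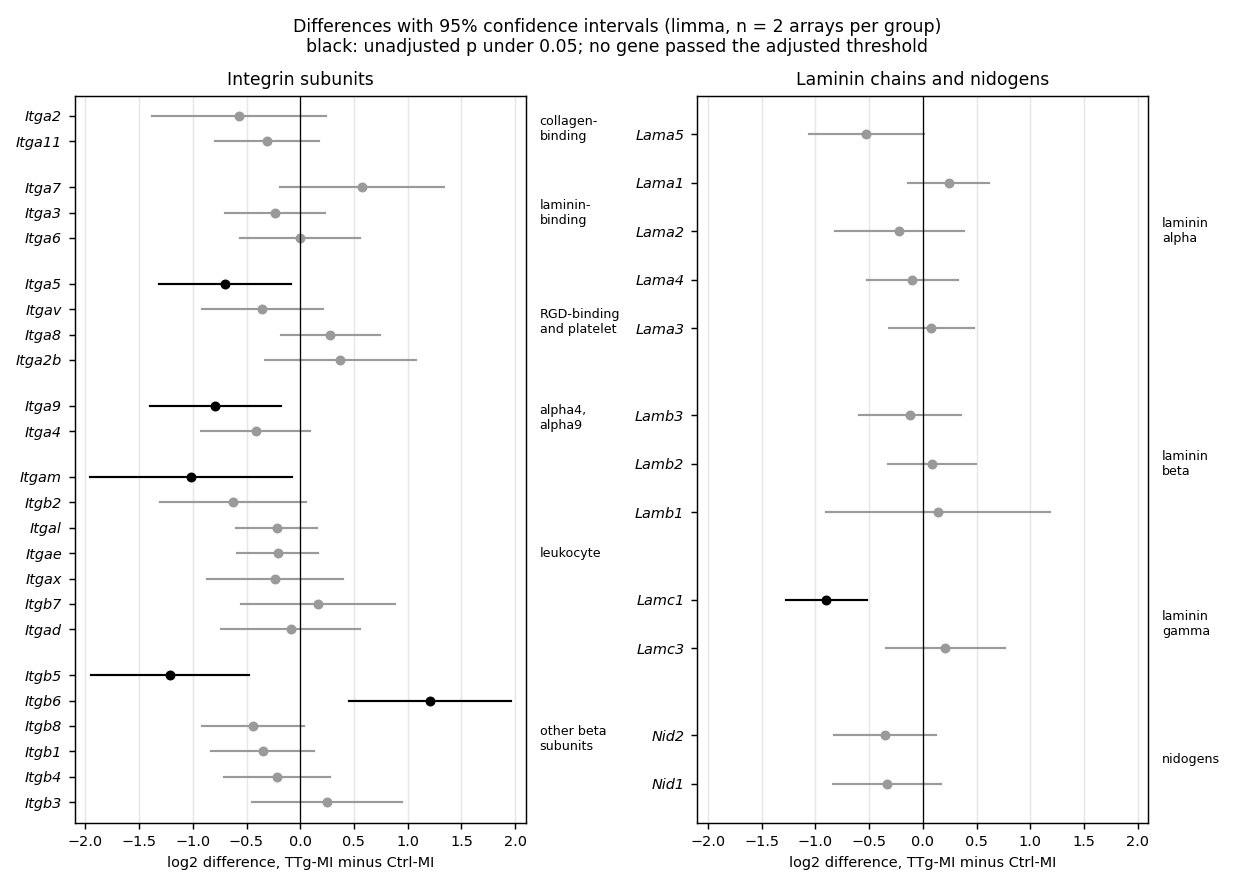
Log2 difference, TTg-MI minus Ctrl-MI, of each gene (points) with its 95% confidence interval from limma (lines), grouped by role. The intervals of Lamc1, Itgb5, Itgb6, Itga9, Itga5 and Itgam, in black, leave out 0 before adjustment, and no gene passed the adjusted threshold.

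A pair of integrin beta subunit genes differed by more than 2-fold, in opposite directions. Itgb5 encodes the beta subunit that pairs with alpha V to bind vitronectin. It had 10.18 and 9.85 log2 units in TTg-MI hearts, against 11.63 and 10.83 in Ctrl-MI hearts, without overlap. The log2 difference was -1.21 (SE 0.30, 95% interval -1.95 to -0.47), 2.31-fold lower in TTg-MI (limma, unadjusted p = 0.00755, adjusted p = 0.546). Leaving out each array gave -1.61 to -0.82, and without Ctrl-MI replicate 2 the gene passed limma at an adjusted p of 0.0430.

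Itgb6 encodes the beta subunit that pairs with alpha V on epithelial cells and can activate latent TGF-beta. It had 11.26 and 10.64 log2 units in TTg-MI hearts, against 9.43 and 10.05 in Ctrl-MI hearts, again without overlap. The log2 difference was 1.21 (SE 0.30, 95% interval 0.46 to 1.96), 2.31-fold higher in TTg-MI (limma, unadjusted p = 0.00827, adjusted p = 0.546). It stayed between 0.89 and 1.52 with each array left out. Itgb6 was the only 1 of the 36 genes higher in TTg-MI at an unadjusted p under 0.05.

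Itgav and the beta subunit genes Itgb8, Itgb1, Itgb4 and Itgb3 had smaller gaps. Itgav itself had 10.76 and 10.59 in TTg-MI hearts and 11.30 and 10.75 in Ctrl-MI hearts, with overlap and a log2 difference of -0.35 (SE 0.23). The difference was -0.08 without Ctrl-MI replicate 1. Itgb8, whose product also activates latent TGF-beta, had 6.36 and 6.54 in TTg-MI hearts, against 7.07 and 6.71 in Ctrl-MI hearts (log2 difference -0.44, SE 0.19, limma unadjusted p = 0.0617), and -0.26 without Ctrl-MI replicate 1. Itgb1, the beta subunit shared by most matrix receptors, had 15.58 and 15.79 in TTg-MI hearts, against 16.21 and 15.86 in Ctrl-MI hearts. Its log2 difference was -0.35 (SE 0.19, 95% interval -0.83 to 0.13), and -0.18 without Ctrl-MI replicate 1. Itgb4, the hemidesmosome subunit, overlapped between groups at values near the lower quartile of the arrays. Itgb3 overlapped as well, with a higher TTg-MI mean (log2 difference 0.25, SE 0.28).

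Alpha subunits that bind fibronectin, tenascin or nephronectin lay on both sides. The RGD-binding and platelet alpha subunits Itga5, Itgav, Itga8 and Itga2b had 2 lower and 2 higher TTg-MI means and a median log2 difference of -0.04, while Itga4 and Itga9 both had a lower TTg-MI mean. Itga5 encodes the alpha subunit of the main fibronectin receptor. It had 8.01 and 7.35 log2 units in TTg-MI hearts, against 8.38 and 8.37 in Ctrl-MI hearts, a log2 difference of -0.70 (SE 0.25, 95% interval -1.32 to -0.08) or 1.62-fold lower (limma, unadjusted p = 0.0322, adjusted p = 0.580). Itga9, a receptor for tenascin C and osteopontin, had 10.23 and 9.58 in TTg-MI hearts, against 10.66 and 10.72 in Ctrl-MI hearts. Its log2 difference was -0.79 (SE 0.24, 95% interval -1.40 to -0.18) or 1.73-fold lower (limma, unadjusted p = 0.0200, adjusted p = 0.555). In both genes TTg-MI replicate 2 was the lowest array, and without it the differences were -0.37 for Itga5 and -0.46 for Itga9. Itga4, which binds fibronectin and VCAM1 on leukocytes and other cells, had 7.73 and 7.95 in TTg-MI hearts, against 8.46 and 8.05 in Ctrl-MI hearts, without overlap (log2 difference -0.41, SE 0.20), and -0.21 without Ctrl-MI replicate 1. Itga8, whose product binds nephronectin and also fibronectin, lay higher on both TTg-MI arrays, 7.19 and 7.20, against 7.10 and 6.73 in Ctrl-MI hearts (log2 difference 0.28, SE 0.18), at 0.09 when Ctrl-MI replicate 2 was left out and 0.47 when Ctrl-MI replicate 1 was.

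Promoter sequence is shown for 5 of the 6 genes at an unadjusted p under 0.05, all that the sequence table held, as the bases just before the annotated start, 5′ to 3′, from RefSeq on GRCm38.p6. The table held 22 of the 36 genes, Lamc1 not among them. Short motifs for the factor families of the transgene were searched on both strands in the 250 bases: AGATAA for GATA factors, GGTGTG for T-box factors, CATCTG for the Hand family, and the MEF2 motif. Capitals mark matches, and Itgb5, Itgb6 (its upstream start of 2) and Itga9 held none.
Itgb5 (chr16:33829415-33829664, + strand): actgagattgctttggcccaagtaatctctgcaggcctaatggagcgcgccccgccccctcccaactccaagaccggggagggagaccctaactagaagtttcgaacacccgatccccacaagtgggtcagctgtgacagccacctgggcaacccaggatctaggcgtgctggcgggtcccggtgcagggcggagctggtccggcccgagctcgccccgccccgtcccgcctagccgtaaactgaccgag
Itgb6 (chr2:60722604-60722853, - strand): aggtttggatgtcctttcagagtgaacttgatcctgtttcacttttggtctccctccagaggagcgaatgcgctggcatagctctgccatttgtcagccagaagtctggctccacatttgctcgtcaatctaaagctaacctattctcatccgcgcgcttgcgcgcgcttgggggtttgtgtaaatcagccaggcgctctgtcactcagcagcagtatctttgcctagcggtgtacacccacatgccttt
Itga9 (chr9:118711442-118711691, + strand): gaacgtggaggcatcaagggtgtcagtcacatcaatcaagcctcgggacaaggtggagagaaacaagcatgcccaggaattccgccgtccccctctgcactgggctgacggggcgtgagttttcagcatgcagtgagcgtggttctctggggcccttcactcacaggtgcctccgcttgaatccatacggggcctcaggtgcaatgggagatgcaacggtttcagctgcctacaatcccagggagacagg
Itga5 (chr15:103366792-103367041, - strand): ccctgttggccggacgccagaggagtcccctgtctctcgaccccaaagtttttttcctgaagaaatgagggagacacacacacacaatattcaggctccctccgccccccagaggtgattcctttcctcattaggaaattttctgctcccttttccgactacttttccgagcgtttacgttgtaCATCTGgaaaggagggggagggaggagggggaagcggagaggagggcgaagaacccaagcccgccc
Itgam (chr7:128062390-128062639, + strand): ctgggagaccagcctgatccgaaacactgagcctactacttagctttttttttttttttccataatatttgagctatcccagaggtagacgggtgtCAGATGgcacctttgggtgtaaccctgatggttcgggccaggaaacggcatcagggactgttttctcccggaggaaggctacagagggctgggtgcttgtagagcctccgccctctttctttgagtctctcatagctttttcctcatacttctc

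The matches in Itga5 and Itgam are the Hand letters, starting 66 bases before the start in Itga5 and 154 bases before it in Itgam. Over the member promoters, 5 of 25 windows held the Hand letters, 3 the T-box letters, 1 the GATA letters and 0 the MEF2 motif. Among all 32851 windows of the same length the shares were 14.4%, 16.3%, 9.99% and 1.69%. A match describes letters only and is not a bound site.

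Receptors for laminin and collagen varied by subunit. Itga7, the alpha subunit of the main laminin receptor of striated muscle, had 9.66 and 9.82 log2 units in TTg-MI hearts, against 8.72 and 9.61 in Ctrl-MI hearts. The groups did not overlap, but Ctrl-MI replicate 2 lay close to the TTg-MI arrays. The log2 difference was 0.57 (SE 0.31, 95% interval -0.19 to 1.34), at 0.13 when Ctrl-MI replicate 1 was left out and 1.02 when Ctrl-MI replicate 2 was. Itga6, a laminin receptor of vessels and epithelia, had 10.76 and 10.22 in TTg-MI hearts and 10.58 and 10.40 in Ctrl-MI hearts, with full overlap and a log2 difference of -0.0035 (SE 0.22, 95% interval -0.56 to 0.56). Itga3, a further laminin receptor, also overlapped. Itga11, a collagen receptor of fibroblasts, had 6.45 and 6.23 in TTg-MI hearts, against 6.83 and 6.47 in Ctrl-MI hearts (log2 difference -0.31, SE 0.19), and -0.13 without Ctrl-MI replicate 1. Itga2, a collagen receptor of platelets and epithelia, had 5.77 and 6.003 in TTg-MI hearts and 6.92 and 5.99 in Ctrl-MI hearts, so 1 Ctrl-MI array stood above the other 3.

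Of the 7 leukocyte integrin genes 4 were dim on no array, and 3 of these, Itgam, Itgb2 and Itgal, had a lower TTg-MI mean, whereas Itgb7 had a higher one. Itgam, the alpha subunit of the complement receptor of macrophages and neutrophils, had 6.83 and 6.78 log2 units in TTg-MI hearts, against 8.40 and 7.24 in Ctrl-MI hearts. The log2 difference was -1.02 (SE 0.38, 95% interval -1.96 to -0.08), 2.03-fold lower (limma, unadjusted p = 0.0385, adjusted p = 0.588). It was -0.44 when Ctrl-MI replicate 1 was left out and -1.60 when Ctrl-MI replicate 2 was, where it passed limma at an adjusted p of 0.0366. Its partner Itgb2, the beta subunit common to these receptors, had 6.34 and 6.93 in TTg-MI hearts, against 7.50 and 7.01 in Ctrl-MI hearts, without overlap (log2 difference -0.63, SE 0.27, limma unadjusted p = 0.0646). Without Ctrl-MI replicate 1 that difference was -0.38, and without TTg-MI replicate 1 it was -0.33.

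The lymphocyte and dendritic cell subunits had smaller differences or dim values. Itgal, the alpha subunit of lymphocyte adhesion, had 5.97 and 5.90 in TTg-MI hearts, against 6.11 and 6.20 in Ctrl-MI hearts (log2 difference -0.22, SE 0.15). Itgax, a marker of dendritic cells, was dim on both TTg-MI arrays and on Ctrl-MI replicate 2, Itgae, the subunit that binds E-cadherin, on both TTg-MI arrays, and Itgad on TTg-MI replicate 1. No difference is read for these 3. Itgb7, the beta subunit of lymphocyte homing, had 9.61 and 9.21 in TTg-MI hearts and 9.61 and 8.89 in Ctrl-MI hearts, with overlap (0.16, SE 0.29), and its sign turned when Ctrl-MI replicate 2 (-0.20) or TTg-MI replicate 1 (-0.038) was left out.

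Macrophage markers lay lower alongside Itgam and Itgb2. The TTg-MI mean was lower for all 9 measured macrophage markers, against 47.7% of all probes. Of the 9, 7 lay lower without overlap, 77.8% against 18.7% of all probes. An unadjusted limma p under 0.05 was reached by 5, all lower, 55.6% against 5.07% of all probes. Their log2 differences had a median of -1.09 over the 9 markers. With Ctrl-MI replicate 1 left out the median was -0.56 and the count of 5 was 2, and with TTg-MI replicate 2 left out the count was 1. Their summed level, as log2 of the sum over markers, was 13.23 and 12.22 in TTg-MI hearts, against 15.14 and 13.79 in Ctrl-MI hearts, and none of them was dim on all arrays. Of 6 measured neutrophil markers 3 had a lower and 3 a higher TTg-MI mean, and S100a8 was dim on all arrays. Their summed level was 8.04 and 8.34 in TTg-MI hearts and 8.21 and 8.07 in Ctrl-MI hearts. The part of macrophage number in the Itgam and Itgb2 values was not tested.

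Fibroblast markers showed the same side as Itgb5, Itga5 and Itga11. All 11 measured fibroblast markers had a lower TTg-MI mean, without overlap, where 18.7% of all probes lay lower without overlap. At an unadjusted limma p under 0.05, where 5.07% of all probes stood lower, the number of these markers was 8. Without Ctrl-MI replicate 1 that number was 3, and without TTg-MI replicate 2 it was 5. Their summed level was 18.55 and 17.95 in TTg-MI hearts, against 19.39 and 18.71 in Ctrl-MI hearts. The endothelial list had sums of 16.88 and 16.62 in TTg-MI hearts and 16.81 and 16.69 in Ctrl-MI hearts, set mainly by Fabp4 and Kdr. Of its 9 measured markers 6 had a lower and 3 a higher TTg-MI mean. Without overlap, 2 lay lower and 2 higher, 22.2% each, against 18.7% and 19.4% of all probes. The 2 lower were Pecam1 (-0.56) and Cldn5 (-0.50), and the 2 higher were Tie1 (0.69) and Kdr (0.64). The part of fibroblast number in the integrin values was not tested.

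Atrial markers did not share a side. Of the 8 atrial markers 5 had a higher TTg-MI mean and 3 a lower one, with a median log2 difference of 2.05, or -0.42 without Ctrl-MI replicate 2. Without overlap 3 lay higher, 37.5% against 19.4% of all probes, and 1 lower, 12.5% against 18.7%. The 1 lower was Nr2f1, with 6.21 and 6.19 in TTg-MI hearts, against 6.71 and 6.58 in Ctrl-MI hearts (log2 difference -0.45, SE 0.15). Bmp10, a growth factor of atrial muscle, had 12.38 and 11.82 log2 units in TTg-MI hearts, against 5.31 and 5.39 in Ctrl-MI hearts (log2 difference 6.75, SE 0.22), and was the 1 probe of the table past the adjusted threshold in limma. Stard10, a lipid transfer protein, had 10.30 and 9.97 in TTg-MI hearts, against 8.76 and 8.81 in Ctrl-MI hearts (log2 difference 1.35, SE 0.18). Both were named after their values were seen. In both, as in Itgb6, the groups did not overlap and TTg-MI replicate 1 was the highest array. Bmp10 was dim on both Ctrl-MI arrays, so its difference is measured from values under the lower quartile. The Ctrl-MI values of each gene lay close together, and their order is not read. In Myl4, Sln, Myl7 and Dkk3, Ctrl-MI replicate 2 was the lowest array. On Ctrl-MI replicates 1 and 2, Myl4 had 15.99 and 7.70, Sln 14.07 and 7.90, and Dkk3 10.78 and 7.73. The summed level of the atrial list was 20.07 and 18.97 in TTg-MI hearts and 20.04 and 19.90 in Ctrl-MI hearts. It is set mainly by Nppa, whose values lay near the top of the arrays' range. The part of atrial tissue in the Itgb6 and Itga7 values was not tested.

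Markers of mural cells and smooth muscle, as a sum, lay higher alongside Itga7 and Itgb6. Their summed level was 16.36 and 16.47 in TTg-MI hearts, against 15.10 and 16.01 in Ctrl-MI hearts, without overlap, and none of the 10 was dim on all arrays. That sum is set mainly by the highest probes, those of Abcc9, Acta2 and Rgs5. Abcc9 had 15.14 and 15.54 in TTg-MI hearts, against 13.38 and 14.91 in Ctrl-MI hearts. Of the 10, 6 had a higher and 4 a lower mean in TTg-MI hearts, and the median log2 difference was 0.11. The 4 lower were Tagln (-0.79), Pdgfrb (-0.34), Notch3 (-0.18) and Myh11 (-0.14). Acta2, the smooth muscle actin gene, named after its values were seen, had 14.67 and 14.73 in TTg-MI hearts, against 13.10 and 13.79 in Ctrl-MI hearts (log2 difference 1.26, SE 0.26, limma unadjusted p = 0.00328, adjusted p = 0.546). The part of these cells in the integrin values was not tested. The 12 cardiomyocyte markers summed to 22.66 and 22.66 in TTg-MI hearts and 22.56 and 22.72 in Ctrl-MI hearts. That sum is set mainly by genes near the top of the arrays' range, such as Mb at 19.92 to 19.93, so it can move little. Of the 12, 10 had a higher and 2 a lower TTg-MI mean. Myh7 differed by -1.46 (SE 0.24) and Ryr2 by 0.89 (SE 0.32), both without overlap and both named after their values were seen.

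The platelet integrin genes stood high on a single array. Itga2b and Itgb3 encode the alpha and beta subunit of the fibrinogen receptor of platelets, Itgb3 being used by vessel cells as well. Itga2b had 7.27 and 8.07 in TTg-MI hearts and 7.29 and 7.30 in Ctrl-MI hearts, and Itgb3 had 6.77 and 7.51 in TTg-MI hearts and 7.04 and 6.75 in Ctrl-MI hearts. In both, TTg-MI replicate 2 was alone above the other 3 arrays. Without it, the log2 differences were -0.03 for Itga2b and -0.12 for Itgb3, in place of 0.37 and 0.25. The platelet markers were highest on the same array, with summed levels of 9.18 and 11.09 in TTg-MI hearts and 9.26 and 9.25 in Ctrl-MI hearts. Ppbp, a platelet chemokine chosen after its values were seen, had 5.42 and 10.25 in TTg-MI hearts and 5.79 and 5.38 in Ctrl-MI hearts. The part of platelets in these values was not tested.

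**Figure D3:**
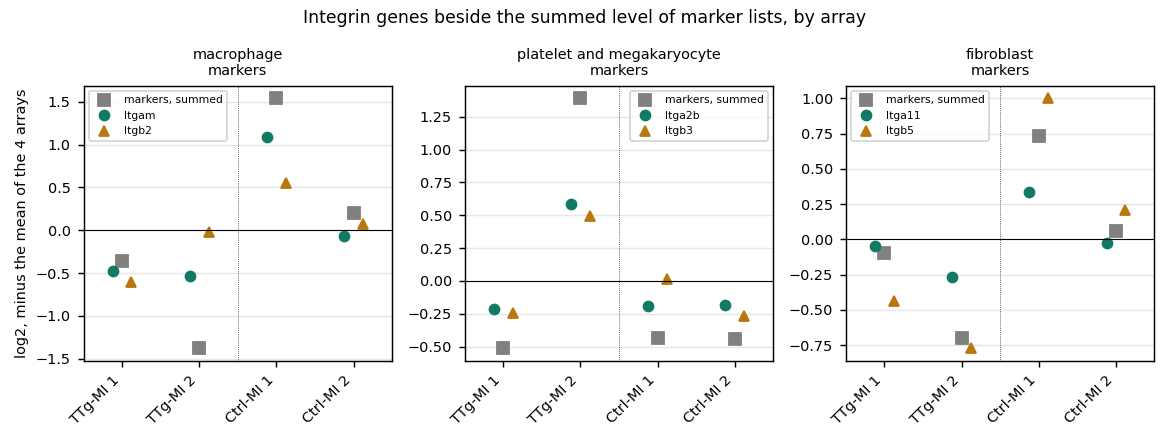
Each array's log2 value minus the mean of the 4 arrays for the summed marker lists of macrophages, platelets and fibroblasts (grey squares) and for a pair of integrin genes beside each (coloured points). Itgam and the macrophage markers are highest on Ctrl-MI replicate 1, and Itga2b, Itgb3 and the platelet markers are highest on TTg-MI replicate 2.

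The 6 genes past the unadjusted threshold had groups without overlap, so their differences had to keep their sign with any array left out. Lamc1, Itgb5 and Itgb6 stayed past that threshold in all 4 such fits and moved by less than 1.5 times, whereas Itgam, Itga5 and Itga9 moved by more. Of the 36 genes, 23 kept 1 direction in all 4 fits, which was fixed in advance for the 19 genes whose groups did not overlap. In size, 30 changed by over 1.5 times in 1 fit or more, among them 26 when Ctrl-MI replicate 1 was left out. With Ctrl-MI replicate 2 left out, 15 of the 36 stood at an unadjusted limma p under 0.05, where 14.7% of all probes did, against 8.25% with all arrays, and 2, Itgam and Itgb5, passed the adjusted threshold, among 332 probes of the whole table.

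**Figure D4:**
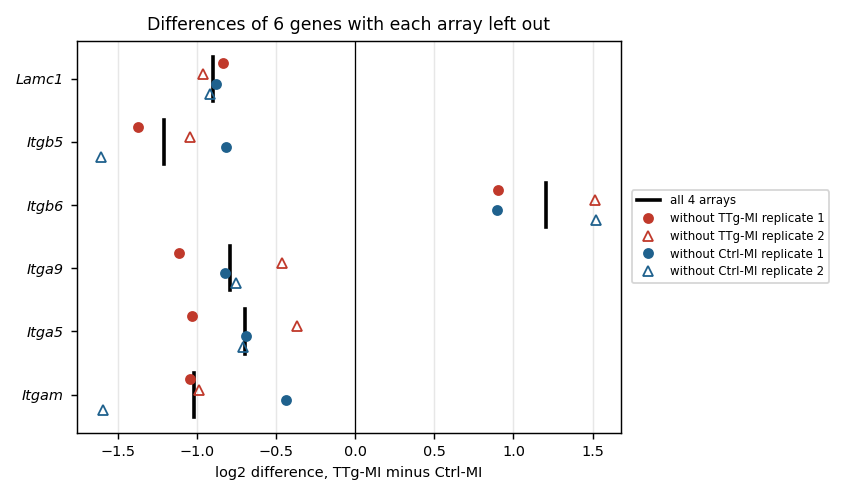
Log2 difference, TTg-MI minus Ctrl-MI, of the 6 genes with an unadjusted limma p under 0.05, with all 4 arrays (black bars) and with each array left out (points). All points of a gene lie on 1 side of 0, as they must for groups without overlap. Those of Lamc1 lie between -0.96 and -0.84 and those of Itgam between -1.60 and -0.44.

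Partners of these genes were read from 5 lists of the same pathway, none of whose genes passed the adjusted threshold in limma with all 4 arrays. Among 15 other basement membrane genes 12 had a lower TTg-MI mean, 80% against 47.7% of all probes, with a median of -0.31. Without overlap 7 lay lower, 46.7% against 18.7% of all probes. At an unadjusted limma p under 0.05 stood 3, all lower and all collagen IV chains, 20% against 5.07% of all probes. Col4a1 had 8.93 and 8.55 in TTg-MI hearts, against 9.58 and 9.33 in Ctrl-MI hearts (log2 difference -0.71, SE 0.20), and Col4a2, its partner in the ubiquitous network, 9.92 and 9.46 in TTg-MI hearts, against 10.36 and 10.20 in Ctrl-MI hearts (-0.59, SE 0.21). Col4a3, a chain best known from kidney, differed by -0.48 (SE 0.16). Col15a1, a collagen next to the basement membrane, differed by -0.46 (SE 0.20) and stood at an unadjusted p of 0.0686. Without TTg-MI replicate 2 the count of 3 was 1.

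The adhesion complex inside the cell varied by gene. Of 25 measured genes 6 had lower and 1 had higher values in TTg-MI at an unadjusted limma p under 0.05. That is 24% lower and 4% higher, against 5.07% and 3.18% of all probes, and the median of all 25 was -0.08. Talin 1, Tln1, which switches integrins on, had 13.90 and 13.49 in TTg-MI hearts, against 14.58 and 14.27 in Ctrl-MI hearts (log2 difference -0.72, SE 0.21). The adaptor paxillin, Pxn, differed by -0.74 (SE 0.19), zyxin, Zyx, by -0.83 (SE 0.22) and the actin cross-linker Actn1 by -0.80 (SE 0.25). On the higher side, the largest difference of the list was 0.89, that of Itgb1bp2, named after its values were seen. Leaving out Ctrl-MI replicate 1 gave 4 lower and 0 higher, leaving out TTg-MI replicate 1 gave 2 and 0, and leaving out TTg-MI replicate 2 gave 4 and 0. Leaving out Ctrl-MI replicate 2 gave 8 lower and 2 higher. The median ran from -0.19 without TTg-MI replicate 2 to -0.0037 with Ctrl-MI replicate 2 left out.

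Ligands of integrins had the lowest median of the 5 lists, -0.61, with 14 of 17 measured genes lower, 82.4% against 47.7% of all probes. At an unadjusted limma p under 0.05 stood 6, all lower, 35.3% against 5.07% of all probes. Fibronectin, Fn1, the ligand of the Itga5 product, had 9.88 and 8.92 in TTg-MI hearts, against 12.34 and 10.36 in Ctrl-MI hearts (log2 difference -1.95, SE 0.68). Thrombospondin 1, Thbs1, a matricellular protein, had 7.69 and 8.11 in TTg-MI hearts, against 11.36 and 9.52 in Ctrl-MI hearts (-2.54, SE 0.58). Icam2, a ligand of leukocyte integrins on endothelium, differed by -0.86 (SE 0.23), and Mfge8, a ligand of alpha V integrins, by -0.55 (SE 0.19). With Ctrl-MI replicate 1 left out the list's count of 6 was 2 and its median -0.33, with Ctrl-MI replicate 2 left out the count was 10, and with TTg-MI replicate 2 left out the count was 3 and the median -0.38.

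Dystroglycan, the proteins of its complex and the laminin receptor Bcam, read as 1 list, did not share a side. Of 9 measured genes 5 had a higher TTg-MI mean, with a median of 0.04 that ran from -0.17 without Ctrl-MI replicate 1 to 0.37 with Ctrl-MI replicate 2 left out. The muscle sarcoglycan Sgcb had 14.23 and 14.62 in TTg-MI hearts, against 13.43 and 13.93 in Ctrl-MI hearts (log2 difference 0.74, SE 0.24). Sgce, a sarcoglycan not limited to muscle, had 8.37 and 8.13 in TTg-MI hearts, against 9.39 and 8.84 in Ctrl-MI hearts (-0.87, SE 0.23). Bcam, a laminin receptor of vessels and blood cells, differed by 0.66 (SE 0.31). Dag1, which encodes dystroglycan, overlapped between groups (0.30, SE 0.32). Dag1 and Bcam, the laminin receptors of the list, thus both had a higher TTg-MI mean. The lower genes were Sgce, Dmd, Utrn and Sspn.

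Membrane proteins that associate with integrins were lower in mean for 7 of 8, with a median of -0.21, or -0.13 without Ctrl-MI replicate 1 and -0.33 with Ctrl-MI replicate 2 left out. The tetraspanin Cd63 had 12.36 and 12.11 in TTg-MI hearts, against 13.60 and 13.15 in Ctrl-MI hearts (log2 difference -1.14, SE 0.21, limma unadjusted p = 0.00216). Slc3a2, the heavy chain of an amino acid transporter that binds beta subunits, differed by -1.18 (SE 0.36). The tetraspanin Cd9 differed by -0.57 (SE 0.26) and the urokinase receptor gene Plaur by -0.26 (SE 0.16). At an unadjusted limma p under 0.05, 25% of the 8 stood lower, against 5.07% of all probes. The count at an unadjusted limma p under 0.05 was 2 with all arrays and 1 without either TTg-MI array.

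**Figure D5:**
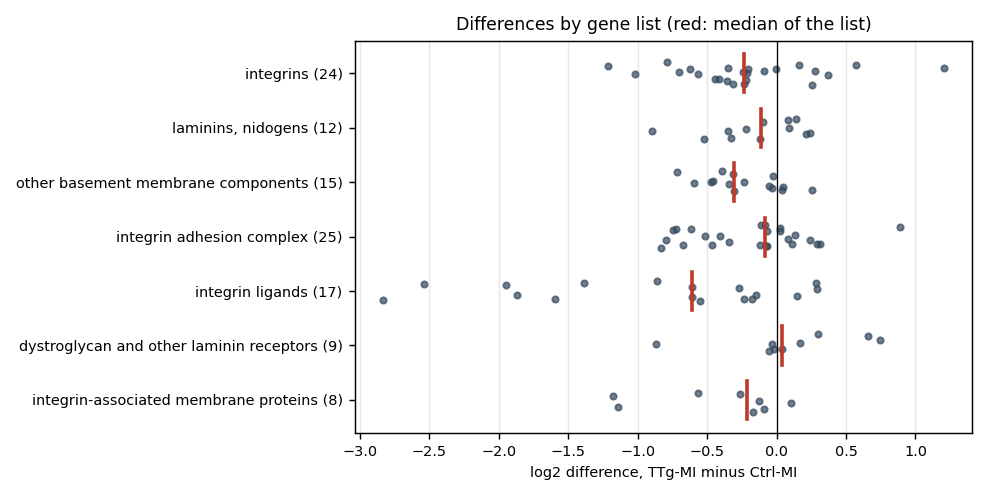
Log2 difference, TTg-MI minus Ctrl-MI, of each gene (points) of the integrins, the laminins with nidogens, and 5 lists of partner genes, with the median of each list in red and its number of measured genes in parentheses. Medians run from -0.61 for integrin ligands to 0.04 for the list labelled dystroglycan and other laminin receptors, which includes proteins of the dystroglycan complex.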

How the data were processed

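Whole-heart RNA of 4 mice, 2 TTg-MI and 2 Ctrl-MI, was measured on Clariom S Mouse arrays. Per the submitters' processing notes the software was Affymetrix Expression Console 1.4. The values were used as the authors deposited them and read as log2 units, a base inferred from their range of 4.22 to 19.9; log base, normalization and build are not given in the sources used here. Precision is limited by the number of arrays. The design text calls the hearts independent biological replicates.

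Probe names came from the platform annotation (19572 of 22206 with 1 symbol, 0 with several, 2634 unnamed here). All probes were fitted with limma 3.58.1 in R 4.3.3 (lmFit, eBayes, two-sided, 2 residual and 3.56 prior degrees of freedom) with Benjamini-Hochberg adjustment, after a test on simulated data. With 2 arrays a group, an exact two-sided permutation test cannot go below 0.333, so no such test was run. Values on all arrays are given for genes at an unadjusted p under 0.05, for the highest probe of each role group, and for others that help place them. The genes and lists were chosen with earlier results of these data known, so list counts are descriptions. Alternatives were scaling, a filter on dim probes, variance models, a replicate block, the mean of a symbol's probes, a threshold of 0.1 and leaving out each array.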

Additional observations from a re-analysis of the deposited data

How the results depend on the processing

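Quantile normalization, median centring, the filter on dim probes (34 of the 36 genes tested), the mean of a symbol's probes and an adjusted threshold of 0.1 left the number of integrin, laminin and nidogen genes past the adjusted threshold at 0 and the number at an unadjusted p under 0.05, where recomputed, at 6. The ordinary linear model gave 1 of the 36 at an unadjusted p under 0.05 and called 0 probes over the whole table, with 1241 probes at an unadjusted p under 0.05. An intensity trend with a robust prior called 4 probes over the table, and 0 of the 36. Leaving out each array in turn gave 0 to 2 of the 36 called, 4 to 15 at an unadjusted p under 0.05 (3.88% to 14.7% of all probes), 26 to 30 without overlap, a condition that is looser with fewer arrays (66.4% to 73.0% of all probes), and 1 to 332 probes called over the table. The median over the 36 ran from -0.26 to -0.14 in these fits. The replicate block called 7 probes over the table and 0 of the 36, with 8 of the 36 at an unadjusted p under 0.05, against 11.1% of all probes; the deviations of same-numbered arrays correlated at 0.163 across probes, but no label says that the numbers mark a shared litter or day, so the block is no main result. Small differences changed sign: Itga6 was 0.057 with quantile normalization and 0.0098 with median centring, and -0.27 to 0.26 with an array left out. In the same fits Itgb7 ran from -0.20 to 0.52, Lama4 from -0.23 to 0.036 and Lamb2 from -0.032 to 0.21. The cause was not tested. Leaving out arrays for the partner and marker lists was added after seeing the data.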

Other observations

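Of 7 epicardial and mesothelial markers 6 had a lower TTg-MI mean, 3 of them without overlap, 42.9% of the 7 against 18.7% of all probes. The list summed to 9.67 and 9.44 log2 units in TTg-MI hearts, against 10.50 and 9.51 in Ctrl-MI hearts. T cell markers summed to 8.24 and 8.27 in TTg-MI hearts and 8.37 and 8.37 in Ctrl-MI hearts, and B cell markers to 7.68 and 7.53 in TTg-MI hearts and 7.74 and 7.78 in Ctrl-MI hearts. Schwann cell markers summed to 7.65 and 7.85 in TTg-MI hearts and 7.78 and 7.85 in Ctrl-MI hearts, and adipocyte markers to 8.10 and 7.99 in TTg-MI hearts and 7.86 and 8.27 in Ctrl-MI hearts. No member of these lists passed limma with Benjamini-Hochberg adjustment.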
